A study of Sus scrofa with 32 samples.

Results

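The HOX cluster genes of the pig were examined for 3 histone marks in muscle satellite cells, the resident stem cells of skeletal muscle. Members were all protein-coding genes of the build Sscrofa11.1 whose symbol was HOXA, HOXB, HOXC or HOXD followed by a number only, which gave 36 of 19550 protein-coding genes on placed chromosomes. CUT&Tag, in which an antibody brings a transposase to a histone mark so that the DNA beside it can be sequenced, was run for H3K4me3, H3K27ac and H3K27me3. For every mark there were 8 libraries from 4 conditions, with 2 libraries per condition: untreated cells (labelled WT) at 0 h, before differentiation, and at 60 h of differentiation, and cells given SGC-CBP30 (labelled CBP) at the same times. SGC-CBP30 inhibits CBP and p300, which are histone acetyltransferases, by occupying their bromodomains. Per the labels, proliferating cells received it over 48 h and differentiating cells over 60 h, at 5 uM/ml, a unit that the sources used here do not settle. The labels do not say whether cells taken at 60 h had the compound in both phases. They name no mutant allele, transgene, donor age or pooling of animals. They also conflict: the cell line field and the growth protocol name C3H cells beside the pig organism and the satellite cell type, and the treatment field reads proliferation for the 60 h samples too. Times were taken from the sample titles. In such bulk samples, a mark in fewer cells and a weaker mark in each cell cannot be told apart. Nothing says that the libraries of a group came from separate cultures, so spreads and p-values describe differences between libraries, which may be technical.

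HOX genes encode homeodomain transcription factors that give cells their position along the body axis and in the limb. They lie in clusters, and their order along the chromosome follows the order in which they are used, with low paralogue numbers acting towards the head (anterior) and high numbers towards the tail and the limb tip (posterior). Cells taken from the adult body, muscle stem cells among them, often keep the HOX pattern of the place they came from. Silent HOX genes are a classic target of the Polycomb complexes, which write and read H3K27me3. H3K4me3 marks active or poised promoters, and H3K27ac marks active promoters and enhancers.

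The clusters lay on 4 chromosomes of Sscrofa11.1. HOXA held 11 members on chromosome 18, HOXB 8 members on chromosome 12 from 24784953 to 24950661, HOXC 9 members on chromosome 5 from 19151096 to 19268267 and HOXD 8 members on chromosome 15 from 81893997 to 81990026. HOXB4, HOXB9 and HOXD4 were not among the symbols that met the rule and are not analysed here. Paralogues 1 to 4 were called anterior (10 members), 5 to 8 central (11) and 9 to 13 posterior (15). The window of a member was its gene span with 5 kb added on each side, and its value was the length of DNA under the deposited peaks in that window. The windows of 32 of the 36 members overlapped that of a neighbour, so members are not independent measurements. HOXA3, annotated with a span of 46262 bp, takes in HOXA4, HOXA5 and HOXA6 in full. For sums over members the windows were joined, so that each base counted once, into 430.6 kb.

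The peak lists differed greatly in length. H3K4me3 lists held 14898 to 17364 peaks, H3K27ac lists 8969 to 23437 and H3K27me3 lists 1338 to 19317. In H3K27ac the lists held 19531 and 17338 peaks in WT at 0 h, 10972 and 8969 in CBP at 0 h, 23437 and 21694 in WT at 60 h, and 17019 and 13750 in CBP at 60 h. In H3K27me3 the same groups had 1338 and 2660, 19317 and 14723, 8922 and 6174, and 13258 and 12336. The part of list length in the results on members was not tested apart from the alternatives named beside them. Of 15 satellite cell and myoblast genes, 14 had H3K4me3 in both WT libraries at 0 h, with VCAM1 at 0, and of 12 genes of differentiated muscle 2 had it at 0 h and 11 at 60 h. Fibroblast and mesenchymal genes had it in 8 of 12 cases at 0 h and 9 of 12 at 60 h, with summed lengths of 29.7 and 30.6 kb at 0 h and 38.5 and 36.0 kb at 60 h in WT, and DCN, LUM and DPT were at 0 at both times. Smooth muscle and pericyte genes had it in 3 of 7 cases at 0 h and 4 of 7 at 60 h, with summed lengths of 3.18 and 2.58 kb and of 9.26 and 9.43 kb, and MYH11 and RGS5 at 0. Endothelial genes had it in 1 of 8 cases, with PECAM1 and CDH5 at 0. In CBP at 0 h, limma called H3K4me3 lower than in WT at 12 of 15 satellite cell and myoblast genes and higher at 0. Over all genes 41.7% were lower there. At 60 h, 9 of 11 differentiated muscle genes tested were lower in CBP and 0 higher, where 7.36% of all genes were lower. Their sums were 24.3 and 28.8 kb in CBP and 50.6 and 50.4 kb in WT. The part of cell state in the comparisons of CBP with WT was not tested.

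In untreated proliferating cells, the posterior members of HOXA and HOXC carried most of the active marks. H3K4me3 covered 22.9% ± 0.548 (SD, n = 2) of the joined HOX windows and H3K27ac 7.38% ± 0.678 (SD, n = 2), beside 1.64% and 0.700% of the windows of all protein-coding genes. By cluster, H3K4me3 covered 33.3% ± 0.759 of HOXA, 26.8% ± 0.485 of HOXC, 16.8% ± 1.58 of HOXB and 9.69% ± 0.454 of HOXD (SD, n = 2 each), so that the clusters did not overlap between libraries. H3K27ac followed the same order, with 13.8% ± 1.56 of HOXA, 10.8% ± 1.42 of HOXC, 1.93% ± 0.631 of HOXB and no listed base in HOXD. The ranges of HOXA and HOXC in H3K27ac were 12.7 to 14.9% and 9.83 to 11.8%. By paralogue group, H3K4me3 covered 33.3% of the posterior, 22.8% of the central and 14.8% of the anterior windows, and H3K27ac 13.9%, 6.26% and 3.06%. This order from posterior to anterior was found in each of the 8 libraries of both marks. It holds for windows pooled over the clusters and not within each: posterior HOXB13 had no base of either mark in any library, while anterior HOXB2 and HOXB3 had both in WT at 0 h. The anterior windows also include that of HOXA3, which takes in the central HOXA5 and HOXA6.

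HOXA10, which patterns the upper limb and uterus (chromosome 18, 45393525 to 45403259), had 16.6 and 17.0 kb of H3K4me3 in the WT libraries at 0 h, in a window of 19735 bp. HOXA9, a posterior factor known from blood progenitors and from muscle stem cells of old mice (chromosome 18, 45404594 to 45411512), had 16.3 and 16.6 kb in a window of 16919 bp. One stretch of 12.9 kb common to both libraries, from 45402985 to 45415850, ran across both genes. The peak that held it was the widest of all 17092 peaks in one library (12.9 kb) and of all 17364 in the other (20.3 kb). H3K27ac was also longest there, with 9.71 and 9.15 kb at HOXA10 and 9.57 and 8.11 kb at HOXA9, values that share bases because the windows overlap. HOXC10, expressed in the hindlimb (chromosome 5, 19197810 to 19202975), followed with 12.1 and 12.04 kb of H3K4me3 and 7.46 and 6.07 kb of H3K27ac.

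At the other end of the scale, HOXB1, a hindbrain gene, and HOXB13, the last gene of its cluster, had no H3K4me3 base in any of the 8 libraries. HOXC5 had none at 0 h in either condition. No H3K27ac base was listed in any library for 12 members: HOXA4, HOXB1, HOXB5, HOXB6, HOXB7, HOXB8, HOXB13, HOXC13, HOXD1, HOXD11, HOXD12 and HOXD13. Central HOXB, from HOXB5 to HOXB8, therefore lacked H3K27ac throughout although it carried H3K4me3, with 5.39 and 4.75 kb at HOXB7 in WT at 0 h. H3K27me3 at 0 h in WT covered 1.39% of the HOX windows in one library and 9.18% in the other, so its level there was poorly fixed. In both libraries it was longest at HOXB8 (2.33 and 11.3 kb) and HOXB13 (2.20 and 6.49 kb).

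**Figure D1:**
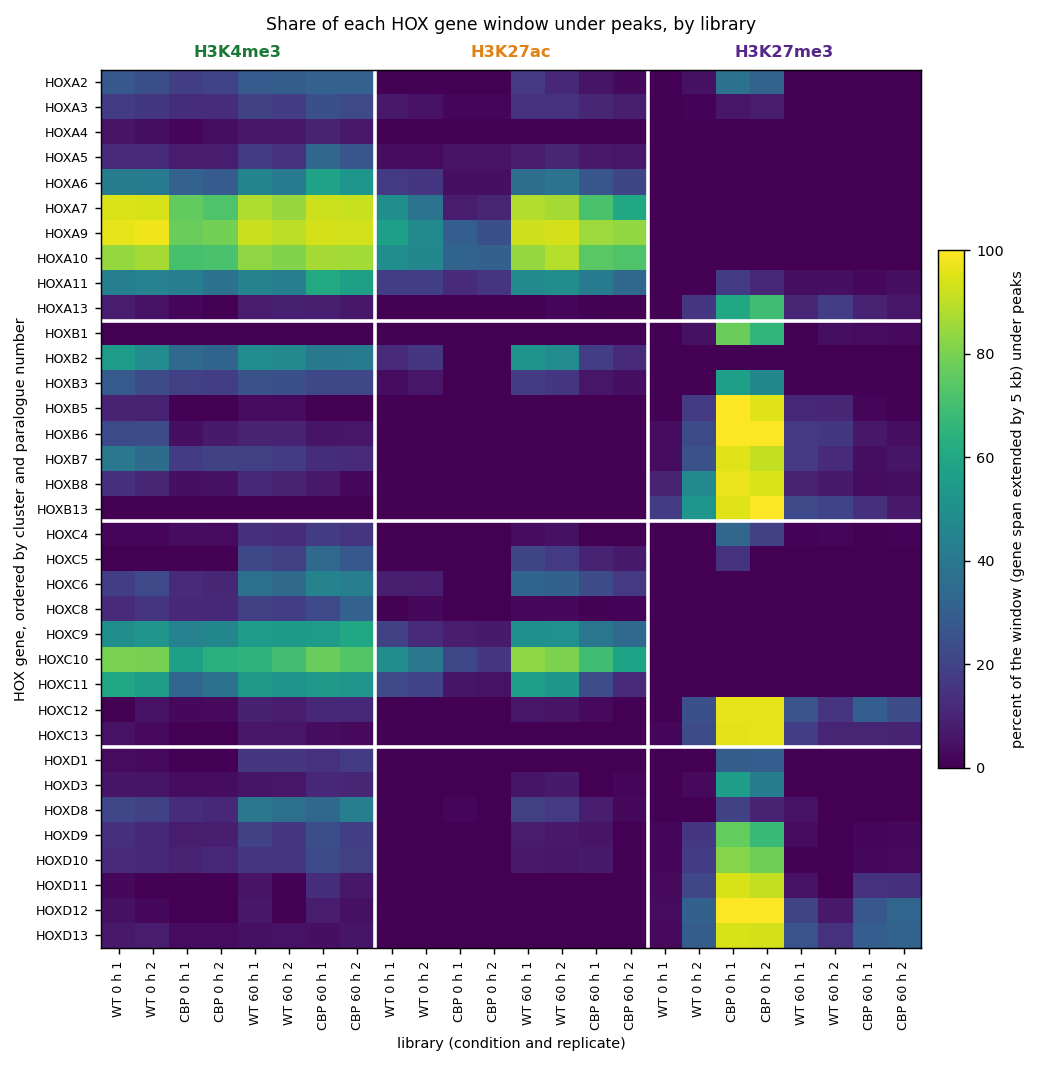
Share of each member's window under peaks (colour, in percent) for 35 HOX genes (rows, by cluster and paralogue number) in the 24 libraries (columns, by mark and condition, 2 libraries each). H3K4me3 and H3K27ac cover large parts of the windows at HOXA7, HOXA9, HOXA10 and HOXC10, and H3K27me3 fills most HOXB and HOXD windows in the CBP libraries at 0 h.

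Differentiation of untreated cells was compared first. H3K27ac spread over the HOX clusters while H3K4me3 changed at single genes in both directions. The part of the HOX windows under H3K27ac went from 7.86 and 6.90% at 0 h to 19.6 and 19.2% at 60 h, a difference of 11.98 percentage points (SE 0.523) and a ratio of 2.62. The ratio over the windows of all protein-coding genes was 1.76. The libraries did not overlap. With 2 against 2 libraries an exact two-sided permutation p cannot fall below 0.333, the value found here and for every other sum over windows whose groups did not overlap. The share of all listed H3K27ac bases that lay in HOX windows was 0.261 and 0.256% at 0 h and 0.417 and 0.459% at 60 h. Satellite cell and myoblast genes moved in the same direction, with summed H3K27ac of 32.7 and 31.4 kb at 0 h and 74.8 and 67.0 kb at 60 h in WT. Genes of differentiated muscle went from 4.41 and 3.355 to 33.1 and 29.98 kb. Endothelial genes went the other way, from 2.43 and 2.35 to 1.17 and 0.38 kb. Fibroblast and mesenchymal genes also rose: 7 of 12 had H3K27ac in both WT libraries at 0 h and 8 of 12 at 60 h, and their summed lengths were 16.9 and 16.1 kb at 0 h and 66.0 and 56.1 kb at 60 h. In CBP these sums were 6.13 and 4.43 kb at 0 h and 24 and 20.9 kb at 60 h, with PDGFRA, LUM, THY1 and DPT at 0 in all 4 conditions. The part of such cells in the HOX results was not tested.

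Of 23 members with enough H3K27ac to test, 21 rose and 0 fell by limma with Benjamini-Hochberg adjustment over all 10294 genes tested, where 57.5% of genes were called, 46.8% higher and 10.6% lower. The median log2 change was 1.499 for the members and 0.69 for all genes. With quantile scaling, which gives all libraries the same distribution, 14 members rose and 0 fell, with medians of 0.66 and 0.01. Rises were found in 9 of 9 members of HOXA, 2 of 2 of HOXB, 7 of 8 of HOXC and 3 of 4 of HOXD, and in 7 of 7 anterior, 6 of 7 central and 8 of 9 posterior members. Of the 21, 8 had no listed base at 0 h, so their fold changes depend on the 500 bp added before the logarithm. HOXC4 had H3K27ac in the WT libraries at 60 h alone and entered the test only through them, so it is in that count by selection and supports nothing.

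The 4 largest H3K27ac rises were all at members with no listed base at 0 h. HOXD8, a central member of its cluster, had no base at 0 h and 2.75 and 2.43 kb at 60 h (log2 2.62, SE 0.39, adjusted p = 0.00324). HOXC5, a gene of the neck and shoulder region, went from no base to 2.58 and 2.08 kb (log2 2.495, SE 0.15, adjusted p = 0.000126), a call lost with lists of equal length, where it had no listed base at either time. HOXD9, a limb and trunk gene, went from no base to 2.02 and 1.80 kb (log2 2.27, SE 0.60, adjusted p = 0.0249), but leaving out any 1 of the 4 libraries ended that call, with adjusted p values from 0.0911 to 0.108. HOXA2, which specifies the second pharyngeal arch, went from no base to 2.19 and 1.48 kb (log2 2.20, SE 0.26, adjusted p = 0.00139). HOXC5, HOXD9 and HOXA2 entered the test only through the 60 h libraries of WT and CBP, so their rises were favoured by that selection.

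At genes already acetylated at 0 h the marked stretch grew longer. HOXA7 had 5.95 and 4.56 kb at 0 h and 10.6 and 10.4 kb at 60 h, and HOXA10 went from 9.71 and 9.15 to 16.6 and 17.5 kb, which was most of its window. HOXC11, a hindlimb gene, went from 3.84 and 3.48 to 9.83 and 9.26 kb, and HOXC6, a gene of the forelimb and thorax level, from 1.96 and 1.78 to 7.52 and 7.22 kb. HOXB2, a hindbrain gene, rose from 1.61 and 2.15 to 7.09 and 6.60 kb. None of these groups overlapped, and all 5 genes were among the 21 called. In one 60 h library the widest of 21694 H3K27ac peaks lay over HOXA9 and HOXA10 (17.9 kb), and in the other the second widest of 23437 lay at HOXC9 (10.7 kb).

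**Figure D2:**
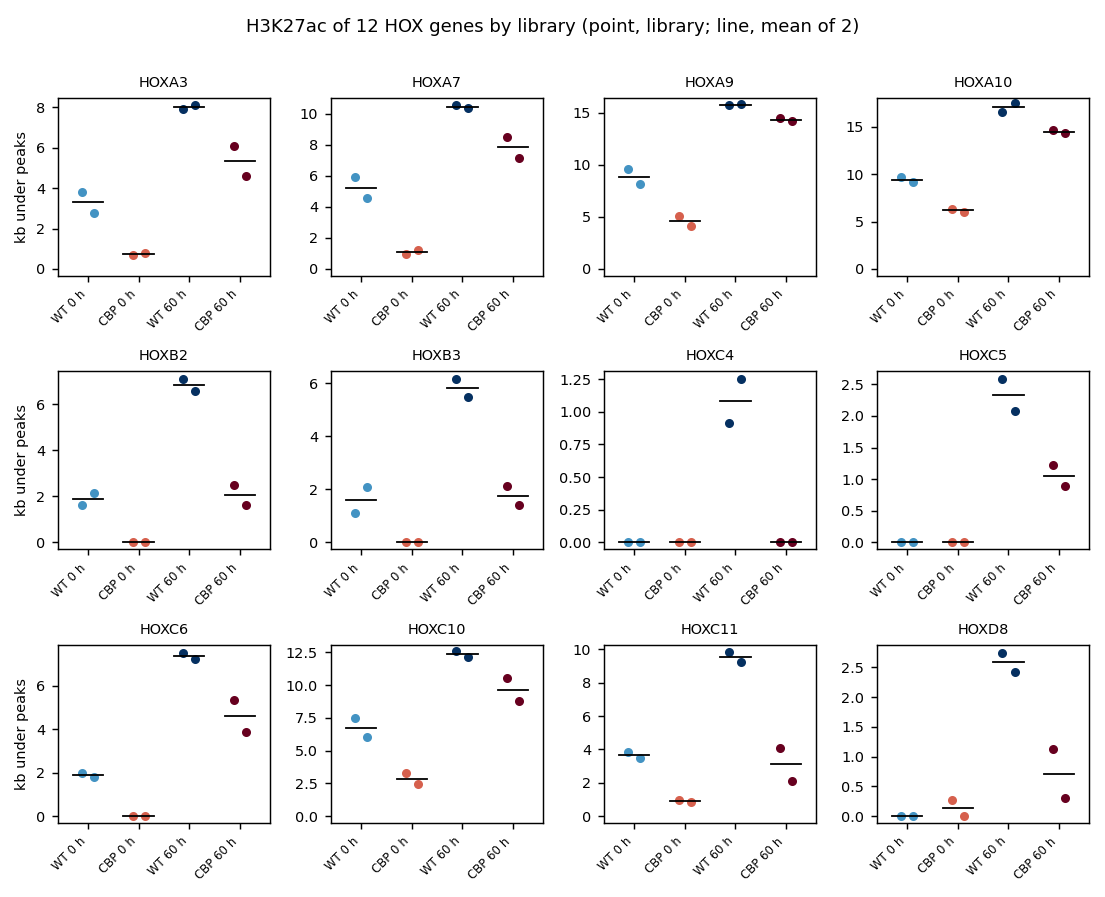
H3K27ac length in kb (vertical axis) at 12 HOX genes in the 8 libraries, by condition, 1 point per library. At HOXA7, HOXA10, HOXC6 and HOXC11 both WT libraries at 60 h lie above both at 0 h, and HOXC4 has bases in the WT libraries at 60 h only.

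H3K4me3 covered 23.3 and 22.5% of the HOX windows at 0 h and 25.1 and 24.2% at 60 h, a difference of 1.78 points (SE 0.618). Of 34 members tested, 8 rose and 7 fell, where 48.1% of 13394 genes were called, 42.2% higher and 5.85% lower. The median log2 change was 0.10, against 0.18 for all genes, and with quantile scaling it turned to -0.19, against -0.07, with 5 members higher and 14 lower. By cluster, 4 members rose and 1 fell in HOXC, 4 rose and 1 fell in HOXD, 0 rose and 3 fell in HOXB, and 0 rose and 2 fell in HOXA. Without WT 60 h replicate 1, 5 rose and 3 fell, and 4 falls were called on leaving out WT 0 h replicate 1 or WT 60 h replicate 2.

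The 8 rises were HOXC4, HOXC5, HOXC6, HOXC12, HOXD1, HOXD8, HOXD9 and HOXD10. HOXC5 had no base in either library at 0 h and 2.68 and 2.33 kb at 60 h (log2 2.59, SE 0.11, adjusted p = 1.9e-05). It entered the test only through the 60 h libraries of WT and CBP, so its rise was favoured by that selection. Its neighbour HOXC4, a gene of the neck region (chromosome 5, 19250411 to 19268267), went from 0.442 and 0.542 to 3.91 and 3.56 kb (log2 2.09, SE 0.08, adjusted p = 1.7e-05). HOXC6 was also called higher, from 4.33 and 5.13 to 8.59 and 8.05 kb. HOXD1, the most anterior member of its cluster, went from 0.376 and 0.296 to 1.97 and 1.98 kb (log2 1.57, SE 0.09, adjusted p = 7.3e-05). HOXC12, a posterior gene, went from 0 and 0.601 to 1.14 and 1.002 kb (log2 1.08, SE 0.33, adjusted p = 0.0365), and the call ended on leaving out WT 60 h replicate 1 (adjusted p = 0.149) or replicate 2 (adjusted p = 0.106).

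Of the 7 falls, 3 lay in central HOXB. HOXB5, a gene of the foregut and trunk (chromosome 12, 24845224 to 24849639), fell from 1.44 and 1.45 kb to 0.415 and 0.430 kb (log2 -1.08, SE 0.08, adjusted p = 0.000158). HOXB6 went from 3.11 and 3.16 to 1.38 and 1.35 kb (log2 -0.96, SE 0.14, adjusted p = 0.00216), not called with lists of equal length (adjusted p = 0.0706). HOXB7 fell from 5.39 and 4.75 to 2.53 and 2.40 kb (log2 -0.91, SE 0.08, adjusted p = 0.000279). At these 3 genes no library of one time reached the range of the other. HOXD13, which shapes the digits, fell from 0.951 and 1.13 to 0.649 and 0.674 kb (log2 -0.41, SE 0.11, adjusted p = 0.0229), with adjusted p = 0.105 once WT 0 h replicate 2 was left out, 0.0969 for WT 60 h replicate 1 and 0.0735 for WT 60 h replicate 2. HOXA7, HOXA9 and HOXC10 completed the 7, with small falls such as 16.3 and 16.6 to 15.54 and 15.2 kb at HOXA9.

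**Figure D3:**
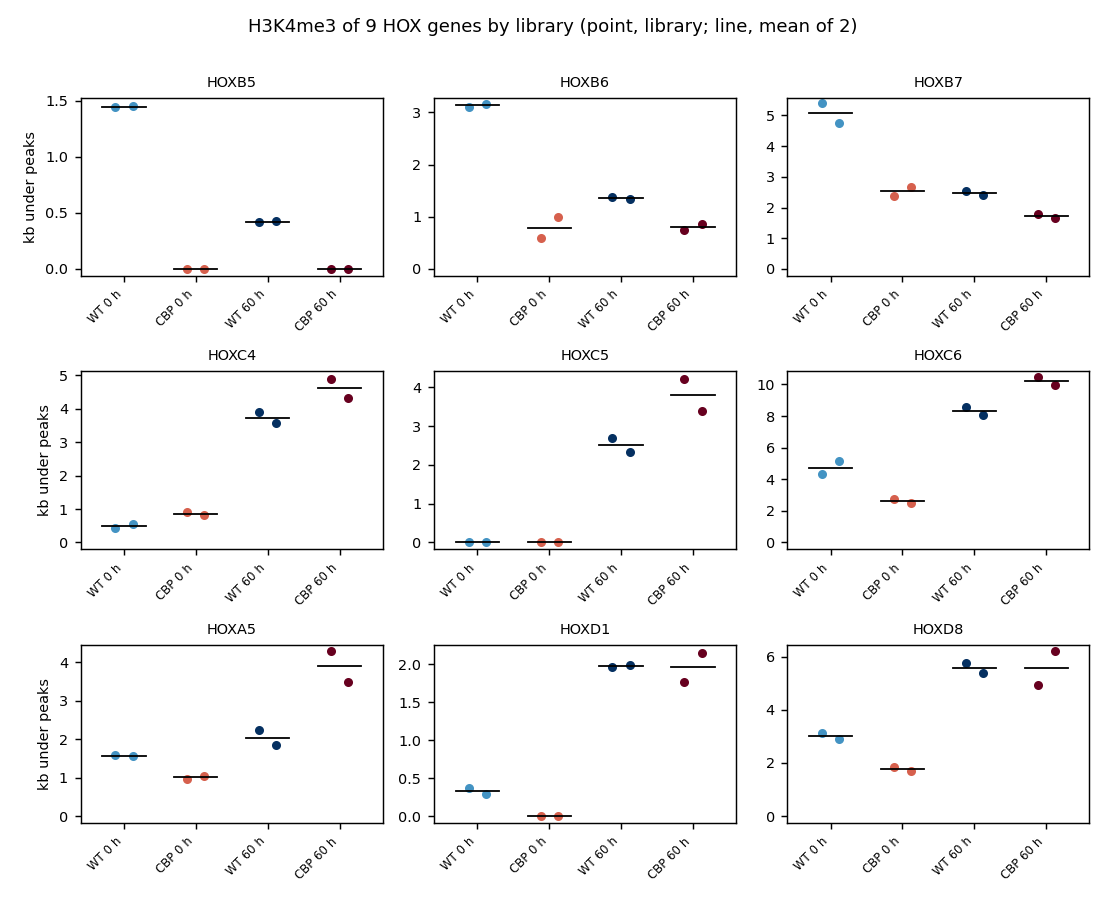
H3K4me3 length in kb (vertical axis) at 9 HOX genes in the 8 libraries, by condition, 1 point per library. From 0 h to 60 h in WT, HOXC4, HOXC5 and HOXC6 lie higher and HOXB5, HOXB6 and HOXB7 lower, and HOXB5 has no base in any CBP library.

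H3K27me3 covered 1.39 and 9.18% of the HOX windows in WT at 0 h and 4.65 and 3.603% at 60 h, so the groups overlapped (exact permutation p = 1.0, two-sided). Of 23 members tested, 1 was called higher and 0 lower by limma, where 21.5% of 4203 genes were called, 20.9% higher and 0.619% lower, and 2 members had an unadjusted p under 0.05. The member was HOXA11, a forelimb gene, with no base at 0 h and 0.516 and 0.585 kb at 60 h (log2 1.07, SE 0.27, adjusted p = 0.0401). Each of the 4 libraries decided that call, with adjusted p values from 0.107 to 0.171 when 1 was left out. Leaving out WT 0 h replicate 2 gave 7 members higher, leaving out WT 0 h replicate 1 gave 2 lower, and leaving out WT 60 h replicate 1 gave none. With quantile scaling 0 were higher and 9 lower, and the median of the members turned from 0.05 to -0.69, against 0.58 and -0.18 for all genes. No member was called among peaks with -log10 q from 5 upwards, where a call was hardly possible. Only 0 and 1.05% of the WT peaks at 0 h and 0.258 and 0.0648% at 60 h reached that value.

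The second comparison set CBP against WT at 0 h, and shares the WT 0 h libraries with the first. In the CBP libraries H3K27me3 peaks covered large parts of HOXB and HOXD and the ends of HOXA and HOXC, while H3K27ac and H3K4me3 were shorter at most members that carried them. H3K27me3 covered 44.3 and 41.1% of the HOX windows, against 1.39 and 9.18% in WT, a difference of 37.4 points (SE 4.21) and a ratio of 8.07. The ratio over the windows of all protein-coding genes was 11.7. The share of all listed H3K27me3 bases that lay in HOX windows was 0.550 and 0.704% in CBP and 0.542 and 1.27% in WT. With lists cut to the 1338 strongest peaks each, the difference was 26.0 points, and counting peaks with -log10 q from 5 upwards it was 31.2 points. Only 0 and 1.05% of the WT peaks, against 12.6 and 8.38% of the CBP peaks, reached that -log10 q.

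Of 23 members tested, 23 were called higher in H3K27me3 and 0 lower by limma, where 77.2% of 4203 genes were called, 77.2% higher and 0% lower. The 23 include HOXB3 and HOXD1, which entered the test only through these CBP libraries and support nothing. The members' median log2 change was 2.99, against 2.18 for all genes. With quantile scaling 3 members were higher and 0 lower, with medians of 0.18 and -0.11. Without CBP 0 h replicate 1 the count was 11 of 21 tested, and without CBP 0 h replicate 2 it was 14 of 21. Coverage by cluster was 74.4% ± 3.65 of HOXB, 57.3% ± 3.88 of HOXD, 27.8% ± 2.07 of HOXC and 19.2% ± 0.00242 of HOXA (SD, n = 2 each). The 12 members without an H3K27me3 base in any of the 8 libraries were HOXA4, HOXA5, HOXA6, HOXA7, HOXA9, HOXA10, HOXB2, HOXC6, HOXC8, HOXC9, HOXC10 and HOXC11.

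Central HOXB was covered almost in full, with 98.5% of its joined windows in one CBP library and a mean of 96.9%, against 19.6% in WT. HOXB6 (chromosome 12, 24849741 to 24853494) had 13.8 kb in both CBP libraries, its whole window, and 0.434 and 3.11 kb in WT. A stretch of 27.4 kb common to both libraries, from 24841074 to 24868425 on chromosome 12, ran over HOXB5, HOXB6, HOXB7 and part of HOXB8. A second of 33.4 kb, from 24869801 to 24903219, held most of the rest of HOXB8, whose product acts in blood progenitors, and DNA beyond it. The widest of all 19317 peaks in one library (37.8 kb) and the fourth widest of 14723 in the other (33.4 kb) lay here. Posterior HOXD was similar, with a stretch of 14.1 kb from 81894476 to 81908530 on chromosome 15 over HOXD12, most of HOXD13 and part of HOXD11. HOXD12 had 11.4 kb in both CBP libraries, again its whole window, and 0.334 and 3.51 kb in WT. In HOXC, 18.4 kb over part of HOXC13, a hair and nail gene, and all of HOXC12 were covered, from 19155807 to 19174206 on chromosome 5.

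Among the largest rises in log2 were anterior genes that were empty or nearly so in WT. HOXB3, a hindbrain and neck gene (chromosome 12, 24803119 to 24827557), had no base in WT and 19.5 and 16.02 kb in CBP. HOXB3 and HOXD1 passed the filter on low values only through the CBP libraries at 0 h, so their calls in this mark were fixed by that selection, and no p is given for them. HOXC4 had none in WT and 9.23 and 5.52 kb in CBP (log2 3.94, SE 0.28, adjusted p = 0.000277). HOXB1 had 0 and 0.512 kb in WT and 8.84 and 7.51 kb in CBP (log2 3.604, SE 0.44, adjusted p = 0.00095), and was not called with quantile scaling (adjusted p = 0.232). Of the 23 called members 6 had no base in WT, and their folds depend on the added 500 bp.

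H3K27ac covered 3.24 and 2.86% of the HOX windows in CBP at 0 h, against 7.86 and 6.90% in WT, a difference of -4.33 points (SE 0.515) and a ratio of 0.413. The ratio over the windows of all protein-coding genes was 0.436, and with lists of equal length the difference was -2.54 points. Of 23 members tested, 0 rose and 11 fell, where 34% of genes were called, 1.4% higher and 32.6% lower. The members' median was -0.39, against -0.46 for all genes, and with quantile scaling it turned to 0.14, against 0.08, with 1 member higher and 7 lower. HOXC6 went from 1.96 and 1.78 kb to no listed base (log2 -2.24, SE 0.15, adjusted p = 0.000639). HOXB2 went from 1.61 and 2.15 kb to none (log2 -2.24, SE 0.20, adjusted p = 0.00139), and the overlapping HOXB3 from 1.10 and 2.07 kb to none (log2 -2.02, SE 0.27, adjusted p = 0.00461). With lists of equal length these 3 genes were not called, with adjusted p values of 0.0641 for HOXC6, 0.439 for HOXB2 and 0.428 for HOXB3. HOXA7 kept 0.932 and 1.22 kb of 5.95 and 4.56 kb (log2 -1.86, SE 0.17, adjusted p = 0.00138). HOXA10 retained the most, with 6.37 and 6.02 kb. HOXB had no H3K27ac base in either CBP library.

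H3K4me3 covered 16.3 and 16.6% of the HOX windows in CBP, against 23.3 and 22.5% in WT, a difference of -6.45 points (SE 0.419) and a ratio of 0.718, beside 0.796 over the windows of all protein-coding genes. Of 34 members tested, 1 rose and 25 fell, where 42.9% of genes were called, 1.19% higher and 41.7% lower. The medians were -0.44 for members and -0.19 for all genes. With quantile scaling 1 rose and 11 fell, with medians of -0.14 and 0.06. Falls were called in 9 of 11 members of HOXA, 6 of 6 of HOXB, 5 of 9 of HOXC and 5 of 8 of HOXD, and in 7 of 9 anterior, 9 of 11 central and 9 of 14 posterior members.

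Central HOXB again stood at the low end. HOXB5 went from 1.44 and 1.45 kb to no listed base (log2 -1.96, SE 0.08, adjusted p = 7.1e-05), and HOXB6 from 3.11 and 3.16 to 0.588 and 0.986 kb (log2 -1.51, SE 0.14, adjusted p = 0.000618). These are the same windows that H3K27me3 filled in CBP. HOXB5 passed the filter on low values only through WT libraries, so its fall in CBP was favoured by that selection. HOXA13, which shapes hands and feet, went from 1.26 and 0.752 to 0.248 and 0 kb (log2 -1.28, SE 0.24, adjusted p = 0.00691). HOXC13 went from 0.875 and 0.441 kb to none (log2 -1.19, SE 0.18, adjusted p = 0.00306), but with lists of equal length it had no listed base in either group. HOXC4 was the 1 member that rose, from 0.442 and 0.542 to 0.902 and 0.827 kb (log2 0.46, SE 0.08, adjusted p = 0.00634). HOXA9 and HOXA10 kept most of their H3K4me3, with 13.03 and 13.4 kb and 14.0 and 14.1 kb.

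**Figure D4:**
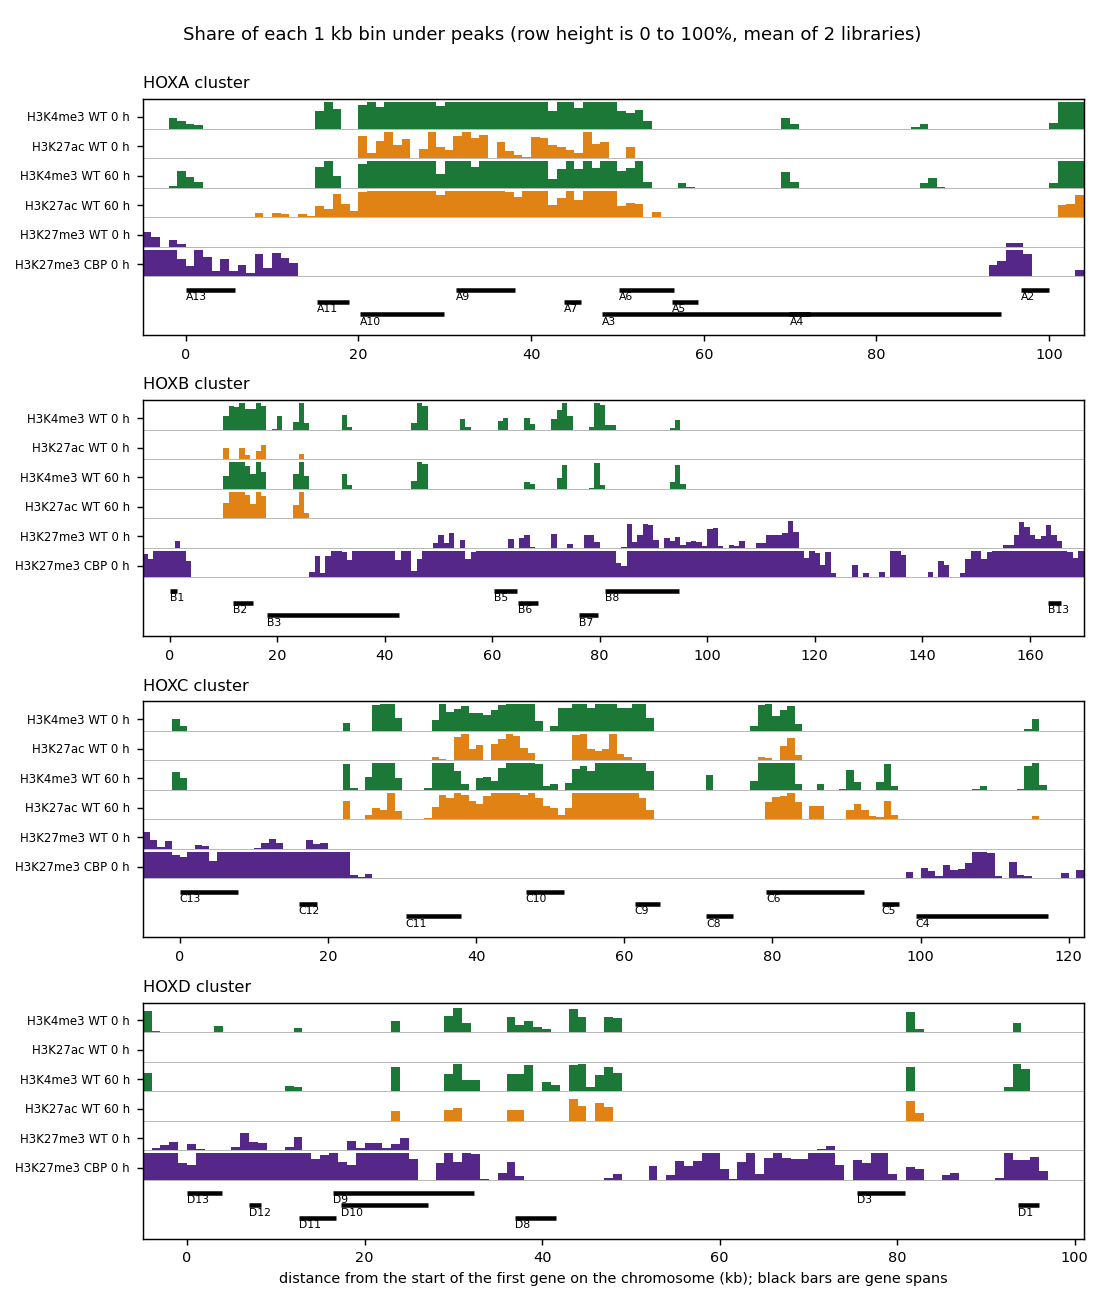
Coverage along the HOXA, HOXB, HOXC and HOXD clusters in 1 kb bins (horizontal axis, kb from the start of the first gene; black bars, genes). Tracks show the mean share of each bin under peaks for H3K4me3 and H3K27ac in WT at 0 h and 60 h, and for H3K27me3 in WT and CBP at 0 h. H3K27me3 in CBP fills HOXB5 to HOXB8 and HOXD11 to HOXD13 and leaves the H3K4me3 block at HOXA7 to HOXA10 free.

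The third comparison set CBP against WT at 60 h. H3K27ac was shorter in CBP at 13 members and H3K4me3 differed at few. It shares the WT 60 h libraries with the comparison of times above. H3K27ac covered 13.8 and 11.01% of the HOX windows in CBP, against 19.6 and 19.2% in WT, a difference of -6.95 points (SE 1.42) and a ratio of 0.641, beside 0.553 for all protein-coding genes. The share of listed H3K27ac bases in HOX windows was 0.507 and 0.512% in CBP and 0.417 and 0.459% in WT. Of 23 members tested, 0 rose and 13 fell, where 48.8% of genes were called, 3.03% higher and 45.8% lower. The medians were -0.84 for members and -0.72 for all genes, and -0.07 and 0.03 with quantile scaling, which left 0 higher and 3 lower. Falls were called in 6 of 7 anterior, 4 of 7 central and 3 of 9 posterior members. The anterior falls include HOXC4, which entered the test only through the WT libraries at 60 h. The count was 3 on leaving out WT 60 h replicate 1 and 6 on leaving out the second library of that group.

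HOXC4 had 0.914 and 1.25 kb of H3K27ac in WT and none in CBP, and is given without a p because only its WT libraries at 60 h took it past the filter on low values. HOXB2 had 7.09 and 6.60 kb in WT and 2.49 and 1.61 kb in CBP (log2 -1.55, SE 0.20, adjusted p = 0.00271). HOXC11 had 9.83 and 9.26 kb in WT and 4.11 and 2.098 kb in CBP (log2 -1.54, SE 0.27, adjusted p = 0.00778). HOXB3 had 6.15 and 5.49 kb in WT and 2.14 and 1.40 kb in CBP (log2 -1.50, SE 0.27, adjusted p = 0.00861). Leaving out WT 60 h replicate 1 ended the calls of HOXC11 (adjusted p = 0.0579) and HOXB3 (adjusted p = 0.0632), and HOXB3 was not called with quantile scaling (adjusted p = 0.0837). At HOXA9 the lengths were close, with 15.7 and 15.9 kb in WT and 14.4 and 14.2 kb in CBP, and it was not called.

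H3K4me3 covered 27.2 and 26.4% of the HOX windows in CBP, against 25.1 and 24.2% in WT, a difference of 2.13 points (SE 0.618). Of 34 members tested, 7 rose and 2 fell, where 17.7% of genes were called, 10.3% higher and 7.36% lower. The medians were 0.12 for members and 0.04 for all genes, and with quantile scaling, where 7 rose and 4 fell, 0.12 and 0.01. Leaving out WT 60 h replicate 2 gave 2 higher and 1 lower, and leaving out CBP 60 h replicate 1 gave 3 and 2. HOXA5, a gene of the neck and lung, had 2.23 and 1.86 kb in WT and 4.29 and 3.498 kb in CBP (log2 0.79, SE 0.10, adjusted p = 0.00466), with adjusted p = 0.0525 when lists had equal length. HOXD3, which shapes the first vertebrae, had 0.868 and 0.960 kb in WT and 1.75 and 1.63 kb in CBP (log2 0.63, SE 0.06, adjusted p = 0.00171).

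HOXC5 had 2.68 and 2.33 kb of H3K4me3 in WT and 4.21 and 3.38 kb in CBP (log2 0.51, SE 0.11, adjusted p = 0.0237), a call that ended on leaving out WT 60 h replicate 1 (adjusted p = 0.0625), WT 60 h replicate 2 (adjusted p = 0.130) or CBP 60 h replicate 1 (adjusted p = 0.0862). HOXA11 had 6.09 and 5.87 kb in WT and 8.28 and 7.79 kb in CBP (log2 0.40, SE 0.06, adjusted p = 0.0096), lost without WT 60 h replicate 2 (adjusted p = 0.067) or CBP 60 h replicate 1 (adjusted p = 0.0578). HOXB5 had 0.415 and 0.430 kb in WT and none in CBP (log2 -0.88, SE 0.08, adjusted p = 0.00121), not called with lists of equal length (adjusted p = 0.347). Its fall was again favoured by selection, since only WT libraries took it past the filter. HOXB7 had 2.53 and 2.40 kb in WT and 1.77 and 1.66 kb in CBP (log2 -0.42, SE 0.08, adjusted p = 0.0149), with adjusted p values from 0.0539 to 0.0856 when any 1 library was left out. Both falls were in central HOXB, and the 7 rises lay in the other clusters.

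H3K27me3 covered 3.58 and 3.08% of the HOX windows in CBP at 60 h and 4.65 and 3.603% in WT, a difference of -0.80 points (SE 0.579). By limma 0 of 23 members were called, with 0 at an unadjusted p under 0.05, where 14.7% of genes were called, 12.1% higher and 2.62% lower. With quantile scaling 0 were higher and 3 lower. Posterior HOXD carried this mark at 60 h, with a mean of 11.9% in CBP and 7.62% in WT, as at HOXD13 with 4.19 and 4.47 kb in CBP and 3.57 and 2.01 kb in WT.

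Within CBP, 60 h was set against 0 h, a comparison that shares its libraries with the preceding ones. H3K27me3 went from 44.3 and 41.1% of the HOX windows to 3.58 and 3.08%, a difference of -39.4 points (SE 1.60). Of 23 members 0 rose and 20 fell, where 50.8% of genes were called, 6.69% higher and 44.2% lower, with medians of -3.35 for members and -1.08 for all genes. With quantile scaling 0 rose and 16 fell, with medians of -1.80 and 0.04. Without CBP 0 h replicate 1 the count was 13 of 21. All 8 anterior and all 5 central members tested fell, and 7 of 10 posterior members. Among the anterior falls, those of HOXB3 and HOXD1 were fixed by selection, since only the CBP libraries at 0 h took them past the filter. HOXB3 went from 19.5 and 16.02 kb to none, given without a p for the same reason as above, and HOXB5 from 14.4 and 13.7 kb to 0.234 and 0 kb (log2 -4.59, SE 0.79, adjusted p = 0.00621). HOXB8 went from 23.0 and 22.3 kb to 0.780 and 0.966 kb (log2 -4.08, SE 0.65, adjusted p = 0.00505). HOXD9 went from 19.8 and 17.6 kb to 0.434 and 0.515 kb (log2 -4.30, SE 0.83, adjusted p = 0.00876), with adjusted p = 0.0556 without CBP 0 h replicate 1. HOXC12, HOXD12 and HOXD13 were the 3 not called, and at 60 h in CBP they had 3.73 and 2.90 kb, 3.09 and 3.72 kb, and 4.19 and 4.47 kb.

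H3K27ac in CBP went from 3.24 and 2.86% to 13.8 and 11.01%, with 15 of 23 members higher and 0 lower, where 38.7% of genes were called, 30.7% higher and 8% lower. The medians were 1.25 and 0.36, and with quantile scaling, where 13 members were higher and 0 lower, 0.68 and -0.08. HOXC6 went from none to 5.34 and 3.89 kb (log2 3.34, SE 0.15, adjusted p = 0.000325), HOXA7 from 0.932 and 1.22 to 8.54 and 7.19 kb (log2 2.41, SE 0.17, adjusted p = 0.000567) and HOXA3, a gene of the third pharyngeal arch, from 0.705 and 0.812 to 6.10 and 4.63 kb (log2 2.21, SE 0.19, adjusted p = 0.000886). The HOXA3 window holds the whole HOXA7 gene, so these changes can share bases and the value of HOXA3 is not its own alone. HOXB2 went from none to 2.49 and 1.61 kb (log2 2.33, SE 0.20, adjusted p = 0.000962), not called with lists of equal length (adjusted p = 0.175). None of the 4 members of HOXD tested was called. H3K4me3 in CBP went from 16.3 and 16.6% to 27.2 and 26.4%, with 30 of 34 members higher and 1 lower, where 81.6% of genes were called, 80.3% higher and 1.26% lower. The medians were 0.81 and 0.44, and with quantile scaling, where the split was 12 and 10, 0.16 and -0.08. HOXC5 went from none to 4.21 and 3.38 kb (log2 3.09, SE 0.11, adjusted p = 7.6e-06), HOXD1 from none to 1.77 and 2.15 kb (log2 2.29, SE 0.09, adjusted p = 1.2e-05) and HOXC4 from 0.902 and 0.827 to 4.90 and 4.32 kb (log2 1.90, SE 0.08, adjusted p = 1.4e-05). Only 60 h libraries took HOXC5 past the filter, so its rise was favoured by that selection. HOXD11 went from none to 1.83 and 0.914 kb (log2 1.86, SE 0.47, adjusted p = 0.00983), with adjusted p = 0.0635 without CBP 60 h replicate 1. HOXB7 alone was called lower, from 2.38 and 2.68 to 1.77 and 1.66 kb (log2 -0.45, SE 0.08, adjusted p = 0.00204).

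The difference between the treatment effects at 60 h and at 0 h was tested as an interaction in the same limma fits. For H3K4me3, 25 of 34 members were higher in that difference and 0 lower, where 41.5% of genes were called, 37.9% higher and 3.56% lower, and with quantile scaling 7 were higher and 1 lower. For H3K27ac, 5 of 23 were higher and 4 lower, where 30.4% of genes were called, 11.5% higher and 18.9% lower. The 4 include HOXC4, selected through the WT libraries at 60 h alone. Quantile scaling gave 5 and 1 and turned the members' median from 0.02 to -0.06, against -0.16 and 0.06 for all genes. The H3K27ac count fell to 3 and 5 on leaving out WT 0 h replicates 1 and 2, to 5 and 3 for those of CBP at 0 h, and to 2 and 1 for those of WT at 60 h. Leaving out CBP 60 h replicate 1 gave 3 higher and 10 lower. For H3K27me3, 0 of 23 were higher and 17 lower, where 56.9% of genes were called, 3.95% higher and 53% lower, and with quantile scaling 0 were higher and 5 lower. The 17 include HOXB3 and HOXD1, selected through the CBP libraries at 0 h alone. The H3K27me3 count was 10 of 21 without CBP 0 h replicate 1 and 11 of 21 without CBP 0 h replicate 2.

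The marks were also read together. Over the 36 members in WT at 0 h, the shares of the window under H3K4me3 and H3K27ac had a Spearman rho of 0.78, and those under H3K4me3 and H3K27me3 one of -0.48. In CBP at 0 h the values were 0.72 and -0.65, in WT at 60 h 0.91 and -0.62, and in CBP at 60 h 0.93 and -0.71. These are descriptions over members that share bases and libraries. Counting bases marked in both libraries of a group, 97.02% of the H3K27ac bases in WT at 0 h and 85.8% in WT at 60 h lay under H3K4me3. Bases under both H3K4me3 and H3K27me3 came to 0.158 kb in WT and 5.26 kb in CBP at 0 h, and to 1.59 and 0.264 kb at 60 h. No mark was listed in both libraries over 77.5% of the HOX windows in WT at 0 h, 46.9% in CBP at 0 h, 72.1% in WT at 60 h and 72.6% in CBP at 60 h.

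Marks were read within 1 kb of both gene ends, since the gene table gives no strand. A mark there may lie at the far end of the gene or belong to a neighbour, and a start inside the span is missed. HOXA5 had no mark at its ends in any condition, though its window held H3K4me3 in all 4. In WT at 0 h, 9 members had both H3K4me3 and H3K27ac at an end: HOXA3, HOXA7, HOXA9, HOXA10, HOXB2, HOXB3, HOXC6, HOXC10 and HOXC11. In WT at 60 h the number was 16, among them HOXC5, HOXD3 and HOXD8. H3K4me3 without another mark was found at 15 members at 0 h and 7 at 60 h in WT. In CBP at 0 h, 3 members had H3K4me3 with H3K27ac (HOXA9, HOXA10 and HOXC10), 7 had H3K4me3 with H3K27me3 (HOXB7, HOXB8, HOXD3 and HOXD9 among them) and 14 had H3K27me3 alone. In CBP at 60 h the numbers were 12 with H3K4me3 and H3K27ac, 1 with H3K4me3 and H3K27me3 (HOXA13) and 5 with H3K27me3 alone. HOXB13 and HOXD12 had H3K27me3 alone in all 4 conditions.

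**Figure D5:**
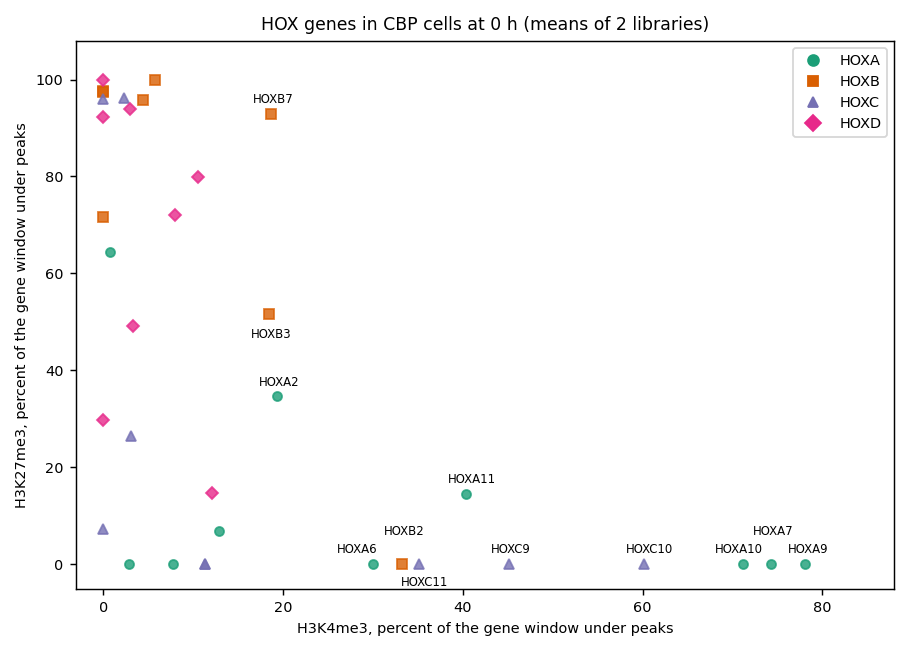
Mean share of the window under H3K4me3 (horizontal axis, percent) and under H3K27me3 (vertical axis, percent) in CBP at 0 h, 1 point for each of 35 HOX genes, coloured by cluster. HOXB6 and HOXD12 lie at full H3K27me3 coverage, and HOXA9, HOXA10 and HOXC10 at high H3K4me3 and no H3K27me3.

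Genes linked to the HOX system were read from lists for comparison. Of 79 homeobox genes outside the clusters tested in H3K27me3, 66 were higher and 0 lower in CBP at 0 h, where 77.2% of all genes were higher, with a median log2 change of 2.11, beside 2.99 in the HOX members and 2.18 in all genes. In H3K27ac at 60 h against 0 h in WT, 13 of 22 such genes were higher and 0 lower, where 46.8% of all genes were higher (median 0.84, against 1.499 in the members). Among genes flanking the clusters, 7 of 9 were higher in H3K27me3 in CBP at 0 h and 0 lower, a share near the 77.2% of all genes. EVX2, the homeobox gene next to HOXD13, was one of them, with 0.419 and 2.46 kb in WT and 11.9 and 11.97 kb in CBP. SKAP1, an adaptor gene beside HOXB, went from 0.307 and 1.23 kb to 43.0 and 69.4 kb (log2 5.54, SE 0.51, adjusted p = 0.00042).

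The PBX, MEIS and PKNOX genes encode the cofactors with which HOX proteins bind DNA. In H3K4me3 in CBP at 0 h, 7 of 8 were lower and 0 higher, where 41.7% of all genes were lower, with MEIS3 at 1.69 and 1.66 kb in WT and 0.924 and 0.881 kb in CBP (log2 -0.63, SE 0.06, adjusted p = 0.000801). In H3K27ac at 60 h against 0 h in WT, 4 of 5 were higher and 0 lower, where 46.8% of all genes were higher. MEIS1 went there from 1.88 and 1.59 to 7.12 and 6.66 kb (log2 1.73, SE 0.12, adjusted p = 0.000166). Of upstream regulators of HOX genes, such as retinoic acid receptors and CDX factors, 6 of 8 rose and 1 fell in H3K4me3 with time in WT, where 42.2% of all genes rose and 5.85% fell. RARB, a retinoic acid receptor, was among the largest of those rises (log2 1.304, SE 0.10, adjusted p = 0.000202), and CYP26A1, which degrades retinoic acid, fell (log2 -0.96, SE 0.13, adjusted p = 0.00146). Of Polycomb genes, 9 of 9 tested in H3K27me3 were higher in CBP at 0 h, where 77.2% of all genes were higher, and 19 of 31 tested in H3K4me3 were lower, where 41.7% of all genes were lower.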

How the data were processed

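The authors deposited a separate peak file for each library (broad peaks for H3K27me3, narrow peaks for the other marks), and 24 were used. The 8 IgG samples were not analysed here. Trimmomatic, MACS2 2.1.0 and Sscrofa11.1 are named in the submitters' processing notes. Aligner, options, control and sequencing depth: not given in the sources used here. The precision that depth gives is therefore unknown. The score column, as deposited, is the display score of MACS2. The ratio column, as deposited, is the peak's fold enrichment over local background. The -log10 p and -log10 q columns, as deposited, are the peak's significance. The deposited narrow lists also give the summit's offset in bp, not used here. The meaning of these columns follows the standard layout of MACS2 files, since no header states it. Each of these is the authors' value within its own library, used here to rank or filter peaks only.

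Peaks of a list were merged in Python 3.11.15 (pandas 2.3.3, numpy 2.4.6), and the bases within each gene span plus 5 kb on each side were counted. Genes came from a RefSeq table for Sscrofa11.1, which gives no strand. Genes that reached 200 bp in 2 or more of 8 libraries entered limma 3.58.1 (R 4.3.3, trend and robust eBayes) on log2 of bp plus 500, with 1 fit per mark, 4 residual degrees of freedom, Benjamini-Hochberg adjustment within a contrast over all tested genes, and calls at an adjusted p below 0.05. A gene with no listed base in a group adds no spread there, and its fold depends on the added 500 bp. The fit was also run on simulated data with seeded changes. Genes there were drawn independently and lists did not differ in length between groups, so that run does not bear on shared windows or list length. Sums over joined windows were compared by exact permutation tests (scipy 1.17.1). Figures used matplotlib 3.10.9. Errors of sums are standard errors of the difference from the SDs of both groups. Named changes were, per mark and comparison, the 4 called members with the largest rise and the 4 with the largest fall whose groups did not overlap. Genes outside the clusters were named from gene lists by pathway and cell type. Values of 1 member and of 1 cofactor gene are not reported here, though counts and sums include them. Members and lists were chosen with earlier results of these data known. Alternatives were an added 100 bp, no filter, quantile scaling, lists of equal length, a -log10 q of at least 5, gene ends or gene spans as windows, a replicate block, only the 4 libraries of a contrast, and leaving out each library.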

Additional observations from a re-analysis of the deposited data

Results flagged for a closer look

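For these results the effect of the treatment at 60 h differed from that at 0 h by the interaction test of limma (Benjamini-Hochberg adjustment over all genes tested), with the difference of the log2 changes given. In H3K4me3 the difference was 1.25 at HOXA5 (adjusted p = 0.00201), 1.16 at HOXA13 (adjusted p = 0.0342), 1.08 at HOXD3 (adjusted p = 0.000695), 1.08 at HOXB5 (adjusted p = 0.00141) and 1.001 at HOXB6 (adjusted p = 0.00981). It was 0.51 at HOXC5 (adjusted p = 0.0384), 0.51 at HOXA11 (adjusted p = 0.00728) and 0.46 at HOXB7 (adjusted p = 0.0189). HOXA5 and HOXD3 were lower in CBP than in WT at 0 h and higher at 60 h, whereas HOXB7 was lower in CBP at both times, by less at 60 h. HOXB5 had no base in any CBP library, so its difference only repeats the fall over time in WT. HOXC5 had no base at 0 h in either condition, so its difference only repeats the change in CBP against WT at 60 h.

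In H3K27ac the difference was 1.61 at HOXC6 (adjusted p = 0.00449) and 1.47 at HOXA7 (adjusted p = 0.00851), both lower in CBP at 0 h, and -1.65 at HOXC4, which had bases in the WT libraries at 60 h alone. In H3K27me3 it was -3.32 at HOXB1 (adjusted p = 0.00851), -4.10 at HOXC4 (adjusted p = 0.00198) and -5.18 at HOXB3, which had bases in the CBP libraries at 0 h alone. HOXC4 in H3K27ac and HOXB3 in H3K27me3 passed the filter only through those libraries, so their values depend on that selection and the added 500 bp, and no p is given. The H3K27me3 lists of these CBP libraries were also the longest of the mark, with 19317 and 14723 peaks, and the part of that length in the differences was not tested.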

How the results depend on the processing

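Counts of HOX members called moved by over 1.5 times as follows. With quantile scaling they were 12 (26 as reported) for H3K4me3 in CBP against WT at 0 h, 8 (25) for the H3K4me3 difference of treatment effects, 3 (13) for H3K27ac in CBP against WT at 60 h, and, for H3K27me3, 3 (23) and 3 (0) in CBP against WT at 0 h and 60 h, 9 (1) over time in WT and 5 (17) for the difference of effects. With lists of equal length they were 5 (9) for H3K4me3 in CBP against WT at 60 h, 16 (25) for the H3K4me3 difference, 7 (11) for H3K27ac in CBP against WT at 0 h, and, for H3K27me3, 14 (23), 1 (0), 2 (1) and 10 (17) in the order above, with 15 members tested instead of 23. At a -log10 q of at least 5 they were 4 (9), 16 (25) and, for H3K27me3, 15 (23) and 0 (1), again with 15 members tested. That q was reached by 12.6 and 8.38% of the H3K27me3 peaks in CBP at 0 h. In WT at 0 h it was 0 and 1.05%, and at 60 h at most 0.258%. Members could thus pass the filter almost only through the CBP libraries at 0 h. The 15 calls follow from that selection and support nothing, and the 0 over time in WT shows nothing either. With the 4 libraries of a contrast only they were 6 (13) for H3K27ac in CBP against WT at 60 h and, for H3K27me3, 1 (0) at 60 h and 2 (1) over time in WT, which an added 100 bp also made 2.

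Leaving out 1 library gave, in the order treatment at 0 h, treatment at 60 h, time in WT, time in CBP and difference of effects, 22 to 24, 3 to 7, 8 to 14, 28 to 29 and 17 to 25 in H3K4me3, 9 to 11, 3 to 16, 16 to 20, 12 to 19 and 1 to 13 in H3K27ac, and 11 to 23, 0 to 0, 0 to 7, 13 to 16 and 10 to 23 in H3K27me3. The difference of effects was given its alternatives after the data were seen. For the HOX windows the 4 differences ranged from -6.84 to -6.07, 1.65 to 2.61, 1.3005 to 2.26 and 9.98 to 10.8 points in H3K4me3, from -4.81 to -3.85, -8.35 to -5.55, 11.5 to 12.5 and 7.96 to 10.8 in H3K27ac, and from 33.5 to 41.3, -1.32 to -0.27, -5.06 to 2.73 and -40.9 to -37.8 in H3K27me3, where the 2.73 without WT 0 h replicate 2 turned the direction over time in WT.

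The coverage differences at 0 h between CBP and WT were -5.14 points with lists of equal length, -5.82 at a -log10 q of at least 5 and -4.43 over gene spans in H3K4me3, -2.54 with equal lists and -3.29 over spans in H3K27ac, and 26.0 with equal lists and 31.2 at that q in H3K27me3. At 60 h they were 3.08 over spans in H3K4me3, -5.23 with equal lists in H3K27ac, and in H3K27me3 0.041, a turned direction, with equal lists, 0 at that q and -0.11 over spans. At most 0.258% of the H3K27me3 peaks at 60 h reached that q, so the 0 shows nothing. Over time in WT they were 2.58 at that q and 4.40 over spans in H3K4me3, and 10.8 with equal lists and 12.6 over spans in H3K27ac. Over time in CBP they were 9.20 with equal lists and 11.9 over spans in H3K4me3, and -28.3, -31.2 and -36.4 with equal lists, at that q and over spans in H3K27me3. The cause of these shifts was not tested.

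Same-numbered libraries deviated together little, with correlations from -0.089 to 0.183, so the numbers were not taken as pairs. A replicate block changed the HOXA11 call in H3K27me3 over time in WT (0 members called, 1 as reported) and moved no other count by over 1.5 times. Of 573 values of the 49 named changes under all alternatives, 513 kept their side of the threshold, 60 lost it and 0 turned direction. Depth, not given in the sources used here, limits all lengths: a base absent from a list is not shown to lack the mark.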

Other observations

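MicroRNA genes inside the clusters were read with 1 kb added on each side, as values with no test. MIR196A-2 (chromosome 5, 19204442 to 19204548), between HOXC10 and HOXC9, had H3K4me3 in every library, with 2107 and 1798 bp in WT at 0 h and 1259 and 1732 bp at 60 h. It also had H3K27ac in every library, with 1415 and 1411 bp in WT at 0 h, 1158 and 334 bp in CBP at 0 h, and 2020 and 1725 bp in WT at 60 h. No H3K27me3 base was listed there. MIR615 (chromosome 5, 19246763 to 19246850), inside HOXC5, had no base of any mark at 0 h. At 60 h it had 1254 and 1627 bp of H3K4me3 in WT and 1594 and 1531 bp in CBP, and H3K27ac in WT only, with 914 and 955 bp.

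Of the other loci, MIR10A (chromosome 12, 24833644 to 24833723) and MIR196A-1 (chromosome 12, 24886316 to 24886395) lay in HOXB, and MIR10B (chromosome 15, 81951644 to 81951723) in HOXD. Both HOXB loci had all 2080 bp of their windows under H3K27me3 in the 2 CBP libraries at 0 h, and MIR10B had 2080 and 1116 bp. In WT at 0 h MIR196A-1 had 890 and 1774 bp and MIR10A 0 and 123 bp. No H3K27ac base was listed at these 3 loci in any library.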
